A study of Rattus norvegicus with 4 samples.

Results

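Splicing removes introns from pre-mRNA, and the proteins that carry it out and steer it were followed here in the telencephalon of Pax6 mutant and wild-type rat embryos. Members were probe sets whose single gene symbol names an SR protein, an hnRNP, a core spliceosome component or a regulator of splicing and mRNA fate. These regulators were taken by symbol, from families with known roles in neural tissue, whatever the role of the single gene. There were 153 member probe sets for 83 genes, out of 31042 non-control probe sets on the array, of which 20826 had a single symbol. General factors (Srsf, Hnrn, Sf3a, Sf3b, Sf1, Snrp, U2af and Prpf symbols) accounted for 102 probe sets and 62 genes. Neuronal and tissue-specific regulators (Rbfox, Ptbp, Nova, Celf, Msi, Elavl, Khdrbs and Mbnl symbols) accounted for 51 probe sets and 21 genes. Ptbp1, Elavl1, Khdrbs1 and Mbnl1 fall in this second class by their symbols although they are widely expressed. Another 4 probe sets, annotated to Hnrnpk, Snrpc or Snrpg together with a further symbol, were left out.

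RNA came from the telencephalon, the front part of the embryonic forebrain, of Sprague-Dawley rats at E11.5, with E0.5 set at noon of the plug day. One group was homozygous for the rSey2 allele of Pax6 (rSey2/rSey2, called mutant here) and the other was wild type, with 2 arrays each. Pax6 is a paired-box transcription factor of dorsal telencephalic progenitors. The design text names 13 telencephalons, so an array stands for pooled embryos; whether every array came from its own pool is unclear. Replicates are described as biological in the labels, with no litters named, and the p-values then reflect how far these 4 arrays scatter, possibly for technical reasons.

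The spliceosome is built on introns from small nuclear ribonucleoprotein particles (snRNPs) and many accessory proteins. SR proteins mostly promote the use of an exon, hnRNPs often oppose it, and tissue-specific regulators such as Rbfox, Nova and Elavl proteins tune that balance in particular cell types. In the developing brain, progenitors are rich in Ptbp1, which holds back neuronal exons and keeps its paralogue Ptbp2 low. Ptbp2, Elavl3 and Rbfox3 (the NeuN antigen) are typical of cells that have begun to differentiate.

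The differences of the splicing genes between mutant and wild type were small. Values are GCRMA values on the log2 scale, where a difference of 1 is a 2-fold change, and differences are mutant minus wild type. Of the 153 probe sets, 136 were bright enough to test, with a mean over the 4 arrays of at least 3.21. In limma 0 of the 136 passed an adjusted p of 0.05 (Benjamini-Hochberg over all 18625 tested probe sets, where 0% passed). Over all genes, with 1 probe set each, the largest difference was -7.26 and the lowest adjusted p in limma was 0.196. In this fit even a difference of that size did not pass, so the 0 does not show that the members are unchanged. With the same 4 arrays, 2 probe sets passed after quantile normalization and 2 after median centring, with 0 members among them. An unadjusted p under 0.05 was reached by 0 of the 136, against 3.65% of all tested probe sets. The lowest unadjusted p was 0.0588, for Msi2 (limma, adjusted p = 1). A difference of at least 0.5 was found for 1 member probe set in the higher direction (Mbnl3; 2.05% of all tested probe sets) and for 1 in the lower direction (Msi2; 2.12%). In bulk tissue, fewer cells of a type and less RNA per cell cannot be told apart.

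The measurements bounded most of these differences within 2-fold, about as often as over the whole array. For 114 of the 136 probe sets the 95% interval of the difference lay wholly within -1 to 1, against 83.1% of all tested probe sets. For 68 it lay within -0.5 to 0.5, against 43% of all. Among the general factors 89 of 100 probe sets (89%) were bounded within 2-fold in both directions. Among the neuronal and tissue-specific regulators 25 of 36 (69.4%) were, a lower share than the 83.1% of all tested probe sets. For the remaining probe sets the interval reached past 2-fold on at least one side. Some bounded probe sets were dim and hardly moved between arrays, where a narrow interval says little about the RNA. Nova2 was at 4.06 on all 4 arrays, Srsf7 lay between 3.48 and 3.51 and Snrpn between 3.67 and 3.70.

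Msi2 and Mbnl3 were the members with a probe set that differed by at least 0.5. Neither difference passed the test, and whether base composition goes with the direction of a difference was not tested. The promoters of both genes are shown because of that size of difference alone. Each covers 250 bases before and 50 after the start of the gene in RefSeq (build GRCr8), 5′ to 3′ on the gene's strand. Msi2 lies at chr10:74007448-74007747 and Mbnl3 at chrX:135582925-135583224, both on the minus strand. Capitals mark GC boxes (GGGCGG) and CCAAT boxes (CCAAT) on either strand.
Msi2: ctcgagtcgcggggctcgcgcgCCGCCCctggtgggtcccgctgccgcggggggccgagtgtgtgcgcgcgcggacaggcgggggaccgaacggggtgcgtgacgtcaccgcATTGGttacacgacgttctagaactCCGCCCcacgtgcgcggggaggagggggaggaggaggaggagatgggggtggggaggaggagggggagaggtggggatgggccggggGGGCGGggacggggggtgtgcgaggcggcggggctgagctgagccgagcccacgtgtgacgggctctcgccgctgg
Mbnl3: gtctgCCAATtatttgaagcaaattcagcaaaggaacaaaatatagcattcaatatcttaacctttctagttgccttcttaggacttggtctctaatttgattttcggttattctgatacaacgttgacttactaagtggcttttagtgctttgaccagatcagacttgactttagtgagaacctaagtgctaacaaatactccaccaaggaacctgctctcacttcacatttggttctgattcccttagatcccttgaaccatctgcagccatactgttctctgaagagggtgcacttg
The Msi2 promoter had a GC content of 75.7%, 38 CpG dinucleotides, 3 GC boxes and 1 CCAAT box. The Mbnl3 promoter had a GC content of 39.7%, 2 CpG dinucleotides, 0 GC boxes and 1 CCAAT box. Neither held TATAAA, the homeodomain core TAATTA or the paired domain core TTCACGC, searched on both strands. A base could count for more than 1 motif.

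RefSeq promoters were found for 73 of the 83 genes. Their median held 24 CpG dinucleotides, against 7 over the 27457 genes with a promoter of the same length. Those genes, the background for every share in this paragraph, were not chosen by expression in these data. Whether the contrasts are particular to splicing genes was therefore not tested. The medians of the general and the neuronal classes were 24 and 27. GC boxes occurred in 45 of the 73 (34.9% of all promoters) and CCAAT boxes in 40 (37.7%). TATAAA occurred in 5 (14.3%). The homeodomain core was found in 1 member promoter, that of Hnrnpc (5.35% of all), and the paired domain core in 2, those of Prpf6 and Ptbp1 (1.3% of all). Hnrnpc differed by -0.06, Prpf6 by 0.02 and Ptbp1 by -0.01. These matches describe letters in a window. Binding was not measured.

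Msi2 encodes Musashi-2, an RNA-binding protein that controls translation in neural progenitors. It was read by 4 probe sets. The brightest had values of 11.72 and 11.77 in the mutant arrays, against 11.92 and 11.99 in the wild-type arrays. The groups did not overlap, and the means were 11.75 ± 0.03 and 11.96 ± 0.05 (SD, n = 2 each). The difference was small, at -0.21 (SE 0.07; 95% interval -0.44 to 0.01; limma, adjusted p = 1). The second probe set had values of 8.47 and 9.58 in the mutant arrays, against 9.60 and 9.89 in the wild-type arrays. Again both mutant values were lower, but the mutant arrays were 1.11 apart, and the difference of -0.72 (SE 0.45) was within that spread. Leaving out mutant replicate 1 gave -0.17, and leaving out mutant replicate 2 gave -1.27.

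The other 2 Msi2 probe sets differed by -0.26 and -0.22. The first of them had 4.95 and 5.65 in the mutant arrays, against 5.55 and 5.57 in the wild-type arrays. The second had 3.03 and 3.67, against 3.57 in both wild-type arrays. In both, mutant replicate 1 was low and mutant replicate 2 lay above the wild-type arrays, so the groups overlapped and the difference was 0.08 and 0.10 without mutant replicate 1. All 4 Msi2 probe sets were thus on the lower side in the mutant, 3 of them largely through 1 array.

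**Figure D1:**
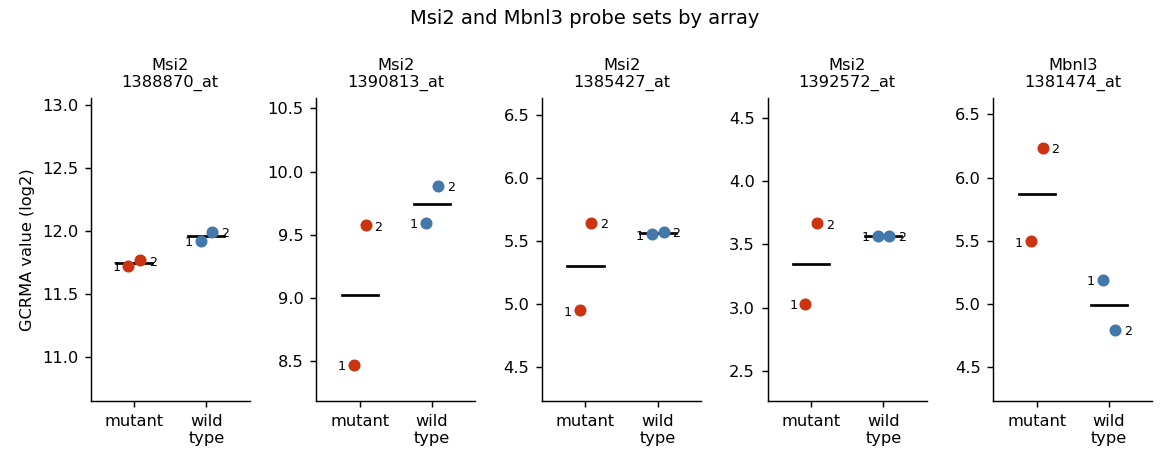
GCRMA values (log2, y axis, the same span in each panel) of the 4 Msi2 probe sets and the Mbnl3 probe set in the mutant and wild-type arrays; points are arrays numbered by replicate and bars are means. The brightest Msi2 probe set separates the genotypes by 0.21 with close replicates, whereas the other Msi2 panels and Mbnl3 show replicates of the mutant that are far apart.

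The Muscleblind proteins are regulators of alternative splicing. The brightest probe set of all 3 genes had a difference above 0, and 0 of the 3 passed the test. Mbnl3 had values of 5.50 and 6.24 in the mutant arrays, against 5.19 and 4.80 in the wild-type arrays. The groups did not overlap, with means of 5.87 ± 0.52 and 4.99 ± 0.28 (SD, n = 2 each). The difference of 0.87 (SE 0.34; 95% interval -0.15 to 1.89) did not pass the threshold (limma, adjusted p = 1). It ran from 0.50 without mutant replicate 2 to 1.24 without mutant replicate 1, and was 0.64 with a pseudocount of 16. Mbnl2 was higher by 0.04 (SE 0.07) in its brightest probe set, with 9.61 and 9.63 in the mutant arrays, against 9.59 and 9.57 in the wild-type arrays. Its groups did not overlap there or in a dimmer probe set (6.45 and 6.78, against 6.29 and 6.40; difference 0.27, SE 0.15). The remaining Mbnl2 probe sets differed by -0.11 and -0.07, so the probe sets of Mbnl2 disagree in sign. Mbnl1 differed by 0.11 (SE 0.10), with 9.52 and 9.32 in the mutant arrays, against 9.32 and 9.29 in the wild-type arrays. Its other tested probe sets differed by 0.12 and -0.06.

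The polypyrimidine tract-binding proteins had small differences, all below 0. Ptbp1 had 13.28 and 13.31 in the mutant arrays, against 13.23 and 13.39 in the wild-type arrays, a difference of -0.01 (SE 0.09; 95% interval -0.30 to 0.27). Ptbp2 had 7.46 in both mutant arrays, against 7.62 and 7.46 in the wild-type arrays, a difference of -0.08 (SE 0.09; 95% interval -0.36 to 0.20). Both intervals lay within 2-fold in either direction. For Ptbp2 both mutant arrays and wild-type replicate 2 held the identical value. Only wild-type replicate 1 departed from it, so the narrow interval of Ptbp2 says little. Ptbp3, a family member known from blood cells, differed by -0.09 (SE 0.21), with 11.55 and 11.18 in the mutant arrays, against 11.63 and 11.29 in the wild-type arrays. In Ptbp3 the replicates of each genotype were further apart than the genotypes.

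The Rbfox genes, whose proteins bind GCAUG next to regulated exons, had 8 of 10 probe sets under the filter, although Rbfox2 and Rbfox3 each had 1 that could be tested. All 6 probe sets of Rbfox1 were under the filter, 4 of them at the lowest value of the array (2.07) on all 4 arrays, where no difference can be measured. Rbfox2 had 9.65 and 9.99 in the mutant arrays, against 9.79 and 10.07 in the wild-type arrays, a difference of -0.12 (SE 0.19). Rbfox3, the marker of mature neurons, had 5.78 and 6.10 in the mutant arrays, against 4.79 and 6.20 in the wild-type arrays. The wild-type replicates were 1.42 apart and enclosed both mutant values. Its difference of 0.45 (SE 0.57) turned to -0.26 without wild-type replicate 1 and was 1.16 without wild-type replicate 2.

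The Celf proteins regulate splicing, stability and translation through GU-rich sites. Celf1 was measured by 5 probe sets, all tested, with differences from -0.09 to 0.04. Its brightest had 12.87 and 13.09 in the mutant arrays, against 13.03 and 13.03 in the wild-type arrays. Celf2 had 9.03 and 9.86 in the mutant arrays, against 9.30 and 9.48 in the wild-type arrays, a difference of 0.05 (SE 0.34). Celf3 had 4.31 and 3.75 in the mutant arrays, against 4.24 and 3.70 in the wild-type arrays, and replicate 1 was the higher array in both genotypes (difference 0.06, SE 0.31). Celf4 and Celf5, brain members of the family, were too dim to test, with Celf4 at the lowest value on all arrays.

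Elavl1 (HuR), which stabilises AU-rich mRNAs in most cells, differed by -0.04 (SE 0.07; 95% interval -0.25 to 0.17). Its mutant values of 12.87 and 12.91 lay just under the wild-type values of 12.93 and 12.92. The other Elavl1 probe sets differed by 0.02 and -0.36, and in the second of these wild-type replicate 1 stood apart at 6.99, against 6.33 in wild-type replicate 2. Elavl3 (HuC), its neuronal relative, had 6.80 and 5.71 in the mutant arrays, against 6.30 and 6.02 in the wild-type arrays. The mutant replicates lay on either side of the wild-type ones, and the difference was 0.10 (SE 0.45; 95% interval -1.27 to 1.46). Its probe set may cross-hybridise, by its suffix, and the other Elavl3 probe set differed by 0.02.

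Khdrbs1 (Sam68), a signal-regulated splicing factor, had 13.67 and 13.63 in the mutant arrays, against 13.58 and 13.56 in the wild-type arrays. The groups did not overlap, and the difference was 0.09 (SE 0.07). Khdrbs3 differed by -0.04 (SE 0.08), and Khdrbs2, a neuronal member, was too dim to test. Nova2, a splicing regulator of cortical neurons, was at 4.06 on all 4 arrays in one probe set and at the lowest value in the other, so it carried no measurable difference. Msi1, Nova1 and Qk are not analysed here.

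**Figure D2:**
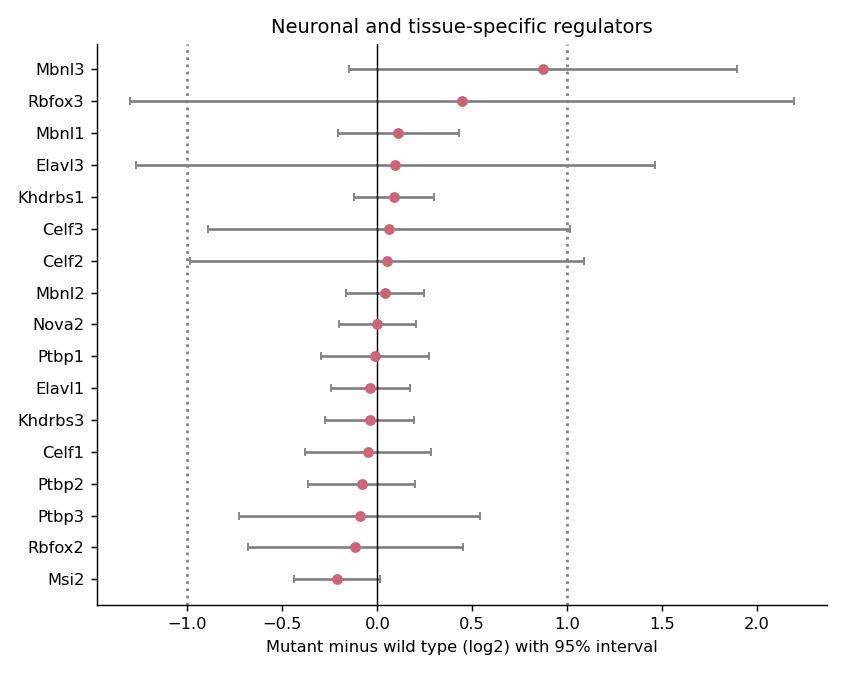
Differences (mutant minus wild type, log2, x axis) of the 17 testable neuronal and tissue-specific regulators with their 95% intervals from limma, 1 probe set per gene; dotted lines mark a 2-fold change. All intervals include 0, those of Ptbp1, Elavl1, Khdrbs1, Khdrbs3 and Mbnl2 are narrow, and those of Rbfox3 and Elavl3 reach past 2-fold on both sides.

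The 2 classes differed in detection. Of the 51 probe sets of the neuronal and tissue-specific class 15 (29.4%) were under the filter, 7 of them at the lowest value on all arrays. Rbfox genes held 8 of these 15. Over the whole array 12417 of 31042 non-control probe sets were under the filter, since it was set at the 40th percentile. The neuronal class was thus dim less often than the array as a whole. Of 102 general probe sets 2 (1.96%) were under the filter. The 2 general ones belonged to U2af1l4 and U2af2. Each of the 62 general genes had a testable probe set, as had 17 of 21 in the other class. The 4 without one were Rbfox1, Celf4, Celf5 and Khdrbs2. The filter used the mean of both genotypes.

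The class medians were near 0. With 1 probe set per gene, the general factors had a median difference of -0.02, with 29 genes higher and 33 lower. The neuronal and tissue-specific class had a median of 0.00, with 8 higher, 8 lower and 1 at exactly 0. Over all 9840 genes tested the median was 0.00, and 49.7% were higher and 49.1% lower. The quartiles of the general genes lay at -0.07 and 0.05 and those of the other class at -0.05 and 0.09, against -0.08 and 0.10 for all genes. The median size of a difference, whatever its sign, was 0.07 for general factors, 0.08 for the neuronal class and 0.09 for all genes. Whether the classes differ from each other was not tested.

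**Figure D3:**
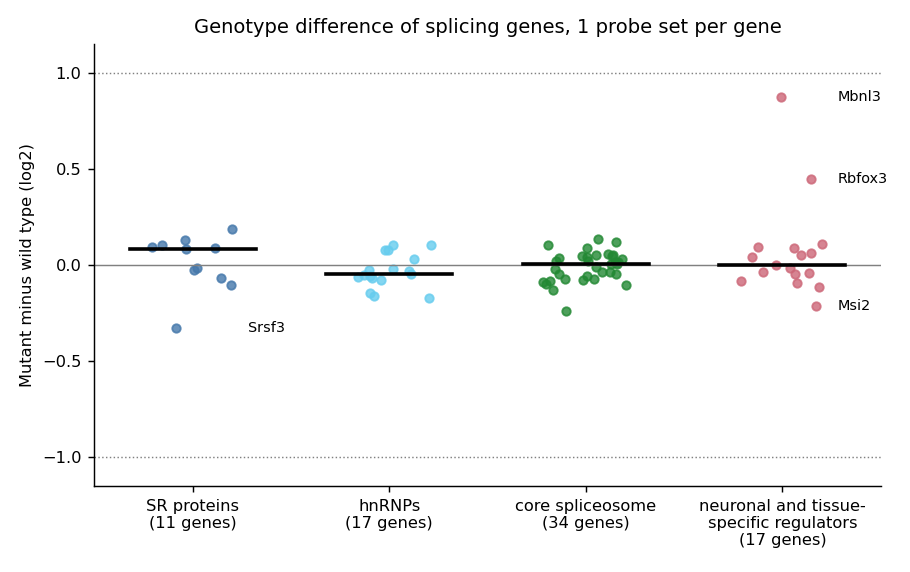
Difference of each gene between mutant and wild type (log2, y axis) by class, 1 probe set per gene; points are genes, spread sideways for visibility, black bars are class medians and dotted lines mark a 2-fold change. The 62 general genes lie between -0.33 and 0.19, and Mbnl3 (0.87) and Rbfox3 (0.45) stand above the rest of the neuronal class.

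SR proteins bind exonic enhancers through RNA recognition motifs and recruit the spliceosome through arginine-serine tails. Of 11 genes, 6 were higher and 5 lower, with a median of 0.08. The largest positive difference was that of Srsf10, which can act as a repressor (0.19, SE 0.17), with 11.30 and 10.94 in the mutant arrays, against 11.01 and 10.85 in the wild-type arrays. Its 5 probe sets ran from -0.10 to 0.22. Srsf6 differed by 0.13 (SE 0.10), and its 3 probe sets were all on the higher side, from 0.07 to 0.13. Srsf11, known in mouse cells to act on neuronal microexons, differed by 0.10 in one probe set and -0.12 in the other. Srsf3, the smallest family member, had the largest negative difference, -0.33 (SE 0.20). Its values were 5.53 and 5.36 in the mutant arrays, against 5.55 and 5.99 in the wild-type arrays, so that mutant replicate 1 and wild-type replicate 1 were nearly equal. Srsf2 (SC35) had 14.35 and 14.29 in the mutant arrays, against 14.41 and 14.44 in the wild-type arrays (difference -0.10, SE 0.07). Its other probe set pointed the other way at 0.06, also with no overlap. Srsf5 differed by -0.07 (SE 0.12). Srsf1, which acts in constitutive and alternative splicing, differed by -0.02 and 0.01 in its 2 probe sets.

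The hnRNPs coat nascent transcripts and often silence exons. Of 17 genes, 5 were higher and 12 lower, with a median of -0.05. Hnrnpm had 12.80 and 12.87 in the mutant arrays, against 12.93 and 13.09 in the wild-type arrays (difference -0.17, SE 0.10). Hnrnpa1, the best studied antagonist of SR proteins, had 14.48 and 14.60 in the mutant arrays, against 14.63 and 14.77 in the wild-type arrays (difference -0.16, SE 0.10). Neither overlapped between the groups, and all 3 Hnrnpa1 probe sets had differences below 0, between -0.20 and -0.11. Hnrnpa1 has near-identical copies in mammalian genomes, so its signal may hold RNA of several loci. Hnrnpul1 differed by -0.15 with a wide error (SE 0.41), since its mutant values were 9.23 and 10.23, against 9.75 and 10.00 in the wild-type arrays. On the other side lay Hnrnpa0 (0.11, SE 0.14), Hnrnpll (0.11, SE 0.14), which controls splicing in lymphocytes, and Hnrnpab (0.08, SE 0.08). The 5 probe sets of Hnrnpa3 differed by -0.10 to -0.003 and the 3 of Hnrnpdl by -0.05 each, and 0 of these 8 passed the test.

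Of 34 core spliceosome genes, 18 were higher and 16 lower, with a median of 0.005. The SF3a and SF3b subunits of the U2 snRNP, which hold it to the branch point, had 6 genes higher and 3 lower. Sf3a1 differed by 0.13 (SE 0.17) and 0.26 (SE 0.13) in its 2 probe sets, without overlap in the second, where the mutant arrays had 6.81 and 7.06, against 6.76 and 6.59 in the wild-type arrays. Sf3a2 differed by 0.12 (SE 0.38), with 9.11 and 9.93 in the mutant arrays, against 9.16 and 9.64 in the wild-type arrays. Sf1, which recognises the branch point first, differed by 0.11 in both of its probe sets. U2af1, the small subunit that reads the AG at the end of the intron, had 13.56 and 13.64 in the mutant arrays, against 13.65 and 13.71 in the wild-type arrays (difference -0.08, SE 0.08). Its paralogue U2af1l4 differed by -0.24 (SE 0.24), with 9.52 and 8.96 in the mutant arrays, against 9.39 and 9.57 in the wild-type arrays.

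The snRNP proteins, which include the Sm ring shared by the spliceosomal particles, had 6 genes higher and 4 lower. In the brightest probe set of each gene the differences stayed between -0.08 and 0.05. A dimmer Snrpd1 probe set differed by -0.30 (SE 0.38), against 0.05 in its brightest. The PRP proteins, some of which act in the tri-snRNP or in activation of the spliceosome, had 5 genes higher and 6 lower. Prpf38a differed by -0.13 (SE 0.17) and Prpf19, the ubiquitin ligase of the activating complex, by -0.10 (SE 0.10). Prpf8, the scaffold of the catalytic centre, differed by 0.05 (SE 0.08; limma, adjusted p = 1).

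Few members had groups without overlap. Both mutant values lay above both wild-type values in 6 of 136 probe sets (4.41%, against 11.4% of all tested), and below in 13 (9.56%, against 11.8% of all tested). The 6 were 2 of Mbnl2 and 1 each of Mbnl3, Khdrbs1, Sf3a1 and Srsf2. The 13 were 2 of Msi2 and 1 each of Elavl1, Hnrnpa1, Hnrnpa3, Hnrnpc, Hnrnpm, Srsf2, Srsf3, Prpf3, Prpf4b, Sf3a3 and U2af1. Srsf2 stands in both lists. Of 30 genes with several tested probe sets, 15 had all of them on the same side (7 higher, 8 lower) and 15 did not. In 0 of these 15 were the probe sets further apart than 0.5. The probe set named Srsf7-ps4, a pseudogene, differed by 0.09 (SE 0.44).

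The splicing probe sets varied more between replicates than between genotypes. The difference of replicate 2 from replicate 1, averaged over both genotypes, had a median size of 0.18, against 0.08 for the genotype difference. Over all tested probe sets these medians were 0.16 and 0.10, so the array as a whole varied in the same way. The replicate difference was larger than the genotype difference in 105 of the 136 probe sets (77.2%, against 63.5% of all tested). In 103 (75.7%, against 65% of all tested) that replicate difference had the same sign in mutant and wild type. Across the 136 probe sets, Pearson's r between the replicate difference in the mutant and that in the wild type was 0.64, against 0.43 over all 18625. This is a description across probe sets, which share arrays and, for some, a gene. The direction of the replicate difference was not the same for all members, since 56 were higher in replicate 2 in both genotypes and 47 were lower.

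Probe sets of one gene could also part in this respect. Prpf4b, a kinase of the tri-snRNP, had 9.25 and 8.41 in the mutant arrays, against 9.34 and 8.08 in the wild-type arrays in one probe set, so replicate 2 minus replicate 1 was -0.84 in the mutant and -1.25 in the wild type. In its brightest probe set these differences were -0.22 and -0.09. Ranked by the larger value of either genotype, the largest replicate differences beside it were those of Rbfox3 (0.32 in the mutant and 1.42 in the wild type) and Elavl3 (-1.19 in the mutant and -0.28 in the wild type, in its dimmer probe set). Their part in the genotype differences was not tested.

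**Figure D4:**
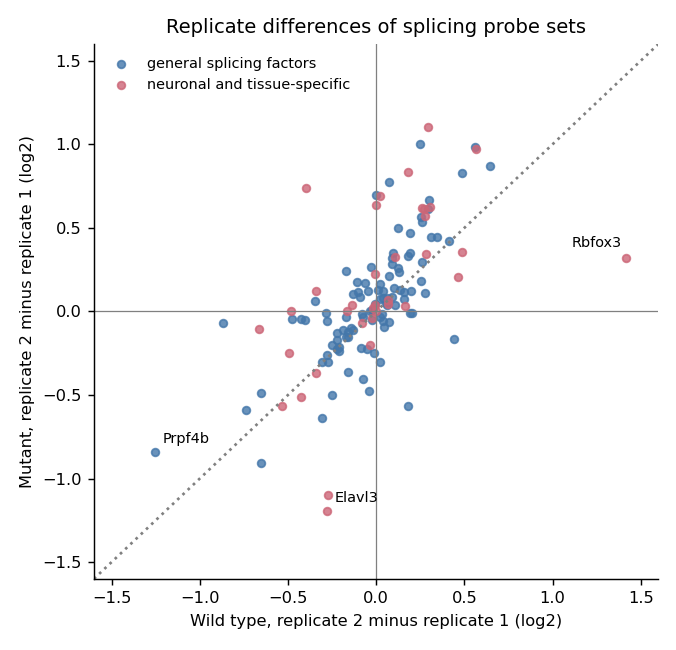
Replicate 2 minus replicate 1 (log2) in the mutant (y axis) against the wild type (x axis) for the 136 tested splicing probe sets, coloured by class; the dotted line marks equal differences. Most points (103 of 136) lie in the lower left and upper right parts. Prpf4b lies far into the lower left, and Rbfox3 and Elavl3 lie further from the dotted line.

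Other splicing and RNA-binding genes outside the symbol rule were taken from a list by function. Of 78 tested genes 32 were higher and 46 lower, with a median of -0.02. In limma 0 passed an adjusted p of 0.05, and 1 had an unadjusted p under 0.05, against 3.65% of all tested probe sets. That gene was Ralyl, an hnRNP C relative, with 2.52 and 2.93 in the mutant arrays, against 4.91 and 4.74 in the wild-type arrays (limma, adjusted p = 0.967). Both mutant values were under the level set for dim probe sets, so Ralyl passed the filter through the wild-type arrays and the size of its difference is not given. Elavl2, the neuronal relative of HuR, differed by -0.42 (SE 0.16) and Slu7, a factor of the second splicing step, by -0.38 (SE 0.15). On the other side lay Fmr1 (0.23, SE 0.53), Rbm22 (0.21, SE 0.11), a protein of the activated spliceosome, and Luc7l2 (0.18, SE 0.14).

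Pax6 itself differed by -0.09 (SE 0.10), and where the rSey2 lesion lies relative to its probe set is not given in the sources used here, so its level does not check the labels. All 8 markers of telencephalon and neuroepithelium with a probe set were above the filter. In the mutant 7 were on the higher side (Lhx2 at 0.30) and 1, Emx2, on the lower (-0.09), with a median of 0.13. Their summed linear level was 49147 and 48617 in the mutant arrays, against 44197 and 43967 in the wild-type arrays. Such a sum mostly reflects the brightest genes of a list. Here these were Vim, Sox2 and Lhx2 (14.08, 13.86 and 13.42 on the log2 scale in mutant replicate 1). Of 9 tested neuron markers, 2 (Rbfox3 and Elavl3) are themselves splicing members. Of the other 7, 3 were on the higher side and 4 on the lower (median -0.03), among them Dcx at 0.51 and Nefm at -0.41. Snap25 and Nefl were under the filter. These 7 summed to 3486 and 3188 in the mutant arrays, against 3050 and 3409 in the wild-type arrays. All 7 tested erythroid markers (median 0.43) and all 7 endothelial markers (median 0.18) were on the higher side in the mutant. Summed, the erythroid markers were at 77898 and 78198 in the mutant arrays, against 67310 and 68045 in the wild-type arrays, and the endothelial ones at 3602 and 4157, against 3274 and 3254. The erythroid sums mostly reflect Hbe1 and Hbz (15.40 and 14.97 on the log2 scale in mutant replicate 1). Mesenchyme markers were lower in 5 of 8 cases and surface ectoderm markers in 3 of 6. Of these markers 0 passed an adjusted p of 0.05 in limma. An unadjusted p under 0.05 was reached by 2 neuron, 2 erythroid, 1 endothelial and 3 surface ectoderm markers, against 3.65% of all tested probe sets. The neuron markers were Dcx (higher) and Nefm (lower). Those of surface ectoderm were Krt18 (-0.73) and Epcam (-0.92) on the lower side and Cdh1 (0.59) on the higher. The part of all these markers in the differences of the splicing genes was not tested.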

How the data were processed

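The single table holds 1 log2 GCRMA value per probe set and array, deposited by the authors; GCRMA, a method with sequence-based background correction, quantile normalization and probe summary, is named per the submitters' processing notes, with its version not given in the sources used here. That values are log2 was inferred from their range of 2.07 to 16.13; arrays give no read depth, and their number limits the precision. After 57 controls were left out, 12417 probe sets with a mean under the 40th percentile (3.21) were dropped and 18625 tested, without further normalization, by limma 3.58.1 in R 4.3.3 (lmFit and eBayes, genotype as the single term, Benjamini-Hochberg). Symbols came from the platform annotation; all 153 members matched RefSeq by Entrez identifier and 0 symbols changed. A gene was represented by its brightest tested probe set. Two-sided exact permutation of 2 against 2 arrays cannot go below 0.333 and is not reported. The fit was tested on simulated data.

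Members, classes and lists were chosen with earlier results of these data known. Named were all neuronal regulators, the 3 largest increases and decreases in each class, any member with an unadjusted p under 0.05, genes with discordant probe sets and the 3 probe sets with the largest replicate difference in either genotype; other genes named were chosen after their values were seen. Alternatives covered normalization, filter, pseudocount, replicate block and each array left out. Replicate numbers were shared between genotypes; the correlation of same-numbered deviations was 0.43, and the labels state no pairing.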

Additional observations from a re-analysis of the deposited data

How the results depend on the processing

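Among the splicing probe sets 0 passed the adjusted threshold under every alternative run, with a lowest adjusted p of 0.727, without mutant replicate 1. An unadjusted p under 0.05 was reached by up to 5 of 136 (3.68%, against 6.17% of all tested), without mutant replicate 2. Over all probe sets the count of 0 became 2 after quantile normalization, 2 after median centring, 1 with the stricter filter and 2 without 249 zero-variance probe sets. Members without overlap and higher numbered 3 instead of 6 with the stricter filter, which tests 117 members (2.56%, against 11.7% of all tested). With 1 array left out, fewer values have to separate, and these counts ran from 22 to 47 higher (16.2% to 34.6%, against 23.6% to 38.8% of all tested) and 32 to 57 lower (23.5% to 41.9%, against 24.4% to 38.7%). With 1 array left out, the class medians ran from -0.03 to 0.0055 for the general and 0.00 to 0.003 for the neuronal class. The general median thus changed sign, without mutant replicate 1. Under all alternatives run the medians moved by less than the SD of class median levels between arrays (0.0913 general, 0.1255 neuronal). That spread is wide beside medians this near 0, so this comparison could hardly come out otherwise. The neuronal median is the value of Nova2, constant on all arrays, so its steadiness says little; it was -0.039 with the stricter filter, 0.013 without zero-variance probe sets and 0.031 over the 6 genes of a narrower neuronal class. With the replicate number as a block the medians were -0.02 and 0.00, 0 members were called, and the lowest unadjusted p was 0.051 (Snrpd1). Of 36 tested genes followed singly, 17 did not change sign under any alternative run (Nova2 stayed at and Ptbp2 reached 0.00), among them Mbnl3 (0.50 to 1.24) and Msi2 (-0.25 to -0.18 in its brightest probe set).

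The sign turned in 19 genes when 1 array was left out, where differences ran as follows. In the neuronal class Celf1 ran from -0.16 to 0.061, Celf2 from -0.36 to 0.47, Celf3 from -0.22 to 0.35, Elavl3 from -0.45 to 0.64, Ptbp1 from -0.10 to 0.068, Ptbp3 from -0.28 to 0.093, Rbfox2 from -0.29 to 0.055 and Rbfox3 from -0.26 to 1.16. Among hnRNPs Hnrnpa0 ran from -0.019 to 0.23, Hnrnpll from -0.0009 to 0.21 and Hnrnpul1 from -0.65 to 0.35. In the core spliceosome Prpf38a ran from -0.28 to 0.023, Prpf4b from -0.21 to 0.011, Sf1 from -0.060 to 0.27, Sf3a1 from -0.039 to 0.31, Sf3a2 from -0.30 to 0.53 and U2af1l4 from -0.52 to 0.044. Among SR proteins Srsf11 ran from -0.038 to 0.24 and Srsf5 from -0.18 to 0.041. Srsf11 was also at -0.0079 as the mean of its probe sets, which lie on opposite sides. For the rest the cause was not tested.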
